A study of Mus musculus with 5 samples.

Results

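The T-box, Gata, Six-family and Eya genes described here are 30 developmental regulators: 16 T-box genes, 5 Gata genes, 5 Six-family genes and 4 Eya genes. The rule takes them by family name and uses no measured value, although the families were picked with earlier results of these data known. All 30 were found among the 21631 protein-coding genes of the RefSeq table for the mouse build GRCm38, the same assembly as mm10. T is the symbol of brachyury. Each gene was described over its annotated body plus 1 kb on either side, called its window below.

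The chromatin came from basal progenitor cells of the epidermis of adult back skin at postnatal day 71. The mice had the genotype Control and carried K14-RFP and K10-H2B-GFP, reporters driven by the promoters of a basal and a suprabasal keratin, and the cells were sorted as Sca1 positive, high in RFP and negative for GFP. Chromatin immunoprecipitation and sequencing was done with 2 libraries for H3K27me3, 2 for H2AK119ub and 1 input library without antibody, and all groups shared this genotype and age. The data are 1 list of called regions per mark, 15102 for H3K27me3 and 33155 for H2AK119ub, with positions and no height, score or replicate. The depth of the libraries and the spread between replicates are unknown, so the results below are descriptions and carry no test.

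T-box proteins bind DNA through the T domain, GATA proteins through zinc fingers, and Six-family proteins through a homeodomain beside a conserved domain of the family. Eya proteins do not bind DNA themselves but join Six-family proteins as coactivators with phosphatase activity. Most of these genes act in embryonic tissues such as mesoderm, heart, limb, eye and kidney. H3K27me3 is the product of Polycomb repressive complex 2 and H2AK119ub that of Polycomb repressive complex 1, both found at silent developmental genes, often at starts rich in CG dinucleotides.

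The marks of known genes were read first against the sort. Of 8 basal epidermal markers, 1 had an H3K27me3 region in its window (Dst, 19.4 kb), and Krt5, Krt14, Krt15, Itga6, Itgb4, Trp63 and Col17a1 had H2AK119ub alone. Over all protein-coding genes, 27.3% had H3K27me3 and 36.7% had H2AK119ub alone. H3K27me3 was found at 2 of 5 suprabasal, 0 of 4 melanocyte, 3 of 3 Merkel, 3 of 3 dermal fibroblast, 2 of 3 T cell, 1 of 1 Langerhans and 0 of 2 endothelial markers. These lists are short, and H3K27me3 counts such as 1 of 8, 2 of 5 or 0 of 4 cannot be told from the share over all genes. A region list does not say in which share of the sorted cells a mark lay, and transcript levels were not analysed here.

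Both marks lay at most of the 30 genes. H3K27me3 had a region in the window of 26 genes (86.7%), against 27.3% of all protein-coding genes. H2AK119ub had one in the window of 28 genes (93.3%), against 60.6% of all. Both marks were present at 25 genes, against 23.9% of all genes. H2AK119ub alone was found at Tbx6, Mga and Six5 (background 36.7%), H3K27me3 alone at Eya4 (3.44%) and neither at Eya3 (36%). The gene bodies had a median length of 20.1 kb, against 17.3 kb for all genes. Neighbouring members are not independent, and when members under 200 kb apart were counted once, 22 of 26 loci had H3K27me3 and 24 had H2AK119ub.

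Much of each window was covered, and by wide regions. The median member had 82.6% of its window inside H3K27me3 regions and 100% inside H2AK119ub regions, against medians over all genes of 0% for H3K27me3 and 10.9% for H2AK119ub. With only 1 kb around both annotated ends as the window, the H3K27me3 median was 50% for members. H3K27me3 covered the whole window of 13 genes (43.3%, against 5.64% of all genes) and 50% or more of it in 20 (66.7%, against 11.7%). H2AK119ub covered the whole window of 17 genes (56.7%, against 15.8%) and 50% or more of it in 21 (70%, against 34.6%). The widest H3K27me3 region of a marked member had a median width of 37.1 kb, against 11.4 kb over marked autosomal genes. For H2AK119ub the median was 39.6 kb at marked members, against 20.1 kb at marked autosomal genes. All 30 members are autosomal, so the autosomal genes are the closer comparison for width.

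**Figure D1:**
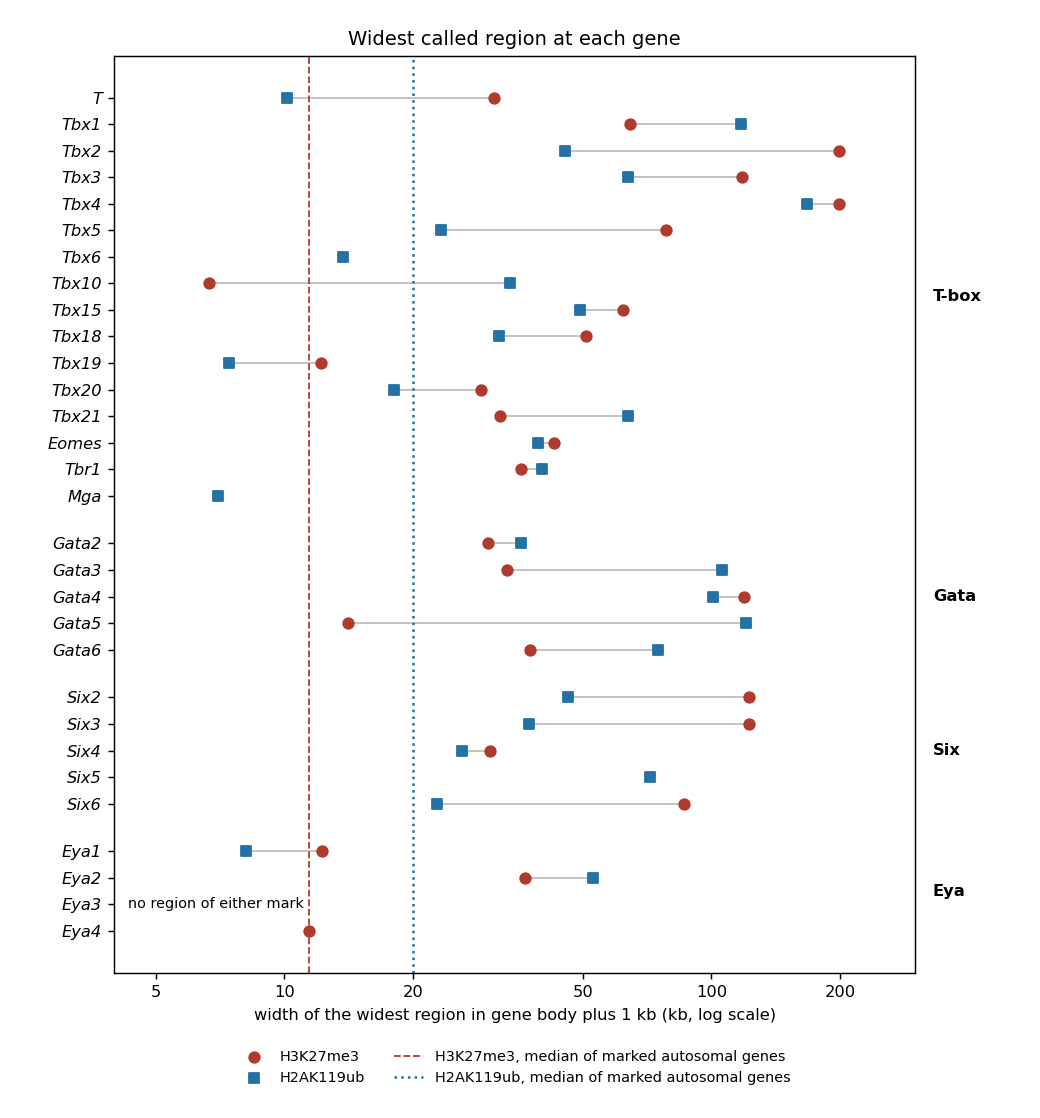
Width in kb, on a log scale, of the widest H3K27me3 region (circles) and H2AK119ub region (squares) in each gene's window, with a grey line joining the marks of a gene and dashed and dotted lines at the medians of marked autosomal genes (11.4 and 20.1 kb). H3K27me3 is widest at Tbx2 and Tbx4, which share a 199 kb region, all 4 marked Six-family genes have the wider region in H3K27me3, and 4 of 5 Gata genes have it in H2AK119ub.

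**Figure D2:**
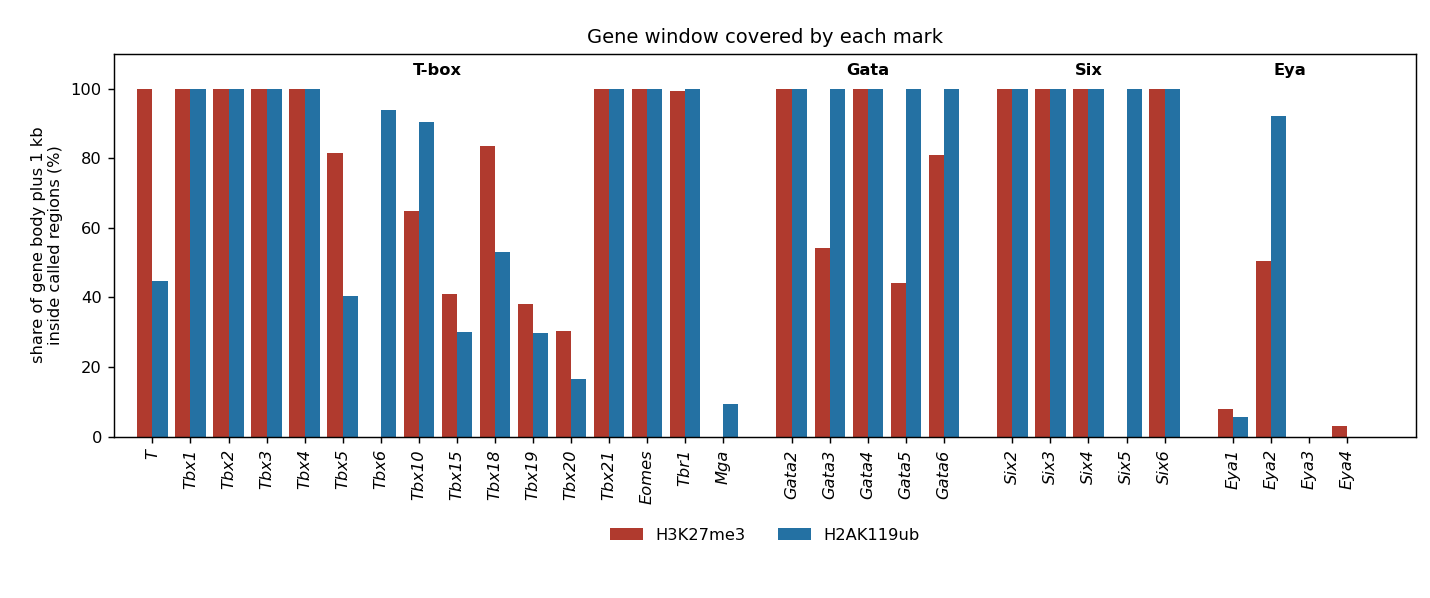
Percentage of each gene's body plus 1 kb that lies inside called H3K27me3 regions (left bar) and H2AK119ub regions (right bar), by family. Both bars reach 100 at 4 of the 5 Six-family genes, whereas Eya1 and Eya4 have 7.94% and 3.15% covered by H3K27me3 and Eya3 has none.

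The distinct regions at the members numbered 31 for H3K27me3, 1366 kb in sum, and 36 for H2AK119ub, 1586 kb in sum. Of the H3K27me3 regions 30 (96.8%) met H2AK119ub, against 71.3% of all autosomal H3K27me3 regions, and 79.6% of their length lay in H2AK119ub, against 66.2%. Of the H2AK119ub regions 32 (88.9%) met H3K27me3, against 27.2% of all autosomal ones, and 70.3% of their length lay in H3K27me3, against 23.2%. Wide regions have more room to touch the second list, and these were wide, with a median of 30.9 kb for H3K27me3, against 7.69 kb on the autosomes, and of 36.5 kb for H2AK119ub, against 8.09 kb.

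RefSeq promoter sequences (GRCm38.p6) were found for 22 of the 30 members, and they give the strand and start used next. The most upstream start in the table lay inside an H3K27me3 region at 18 of the 22 genes, against 19% of 17274 protein-coding genes with a start, and inside an H2AK119ub region at 20, against 38.3%. Around these starts H3K27me3 reached a median of 13.4 kb upstream (range 1.98 to 73.8 kb) and 18.9 kb downstream (3.67 to 126 kb). H2AK119ub reached a median of 15.8 kb upstream (3.36 to 59.7 kb) and 17.6 kb downstream (2.39 to 141 kb). Some of these starts lie well inside the annotated body, by 7.23 kb at Six3, 9.35 kb at Gata3, 10.4 kb at Tbx4 and 24.7 kb at Mga. There, part of the upstream reach is gene body, also for the 73.8 kb at Tbx4. Where a mark met only 1 annotated end of a member of known strand, that was the 5' end each time. This held for H3K27me3 at Tbx10, Tbx18, Tbx19, Tbx20, Gata3, Gata5 and Eya4 (7 of 7), where over all protein-coding genes it held for 81.4% of 2387. For H2AK119ub it held at T, Tbx18, Tbx19, Tbx20 and Mga (5 of 5), against 72.7% of 4002 genes.

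**Figure D3:**
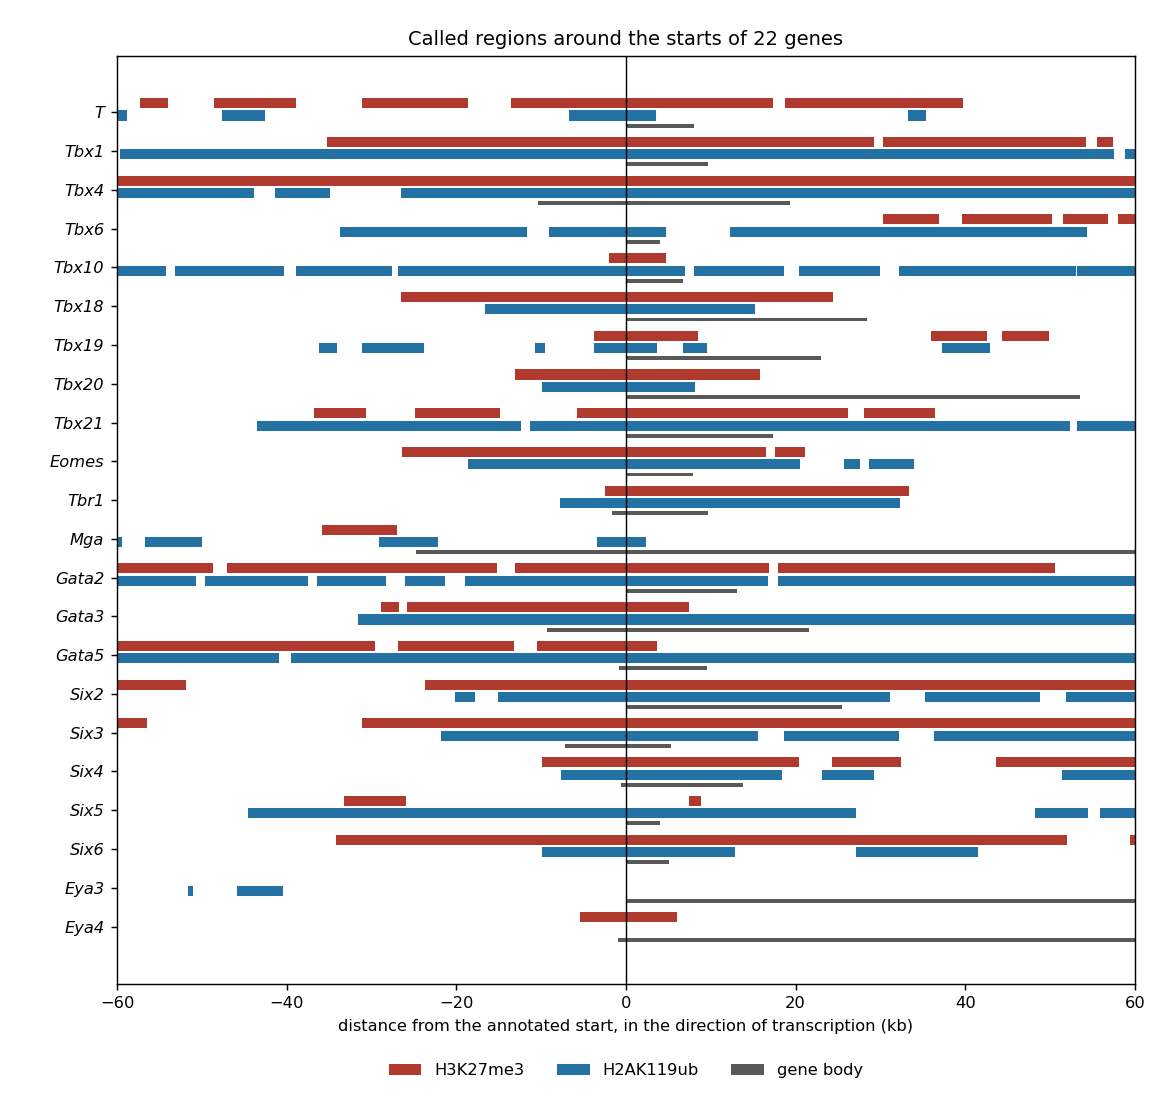
Called regions of H3K27me3 (upper bars) and H2AK119ub (lower bars) and the annotated gene body (thin grey bars) around the starts of the 22 members with a start in the promoter table, in kb along the direction of transcription and cut at 60 kb on either side. The start lies in H3K27me3 at 18 genes, and Tbx6, Mga, Six5 and Eya3 lack it there.

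The 250 bases before the start are printed for 8 members, so that starts with both marks (T, Eomes, Tbx21, Six6) can be read beside starts with H2AK119ub alone (Tbx6, Six5), H3K27me3 alone (Eya4) and neither (Eya3). Each sequence runs 5' to 3' on the gene's strand, and CG dinucleotides are in capitals. Their numbers are 14 at T, 8 at Eomes, 16 at Tbx21, 17 at Six6, 6 at Tbx6, 13 at Six5, 35 at Eya4 and 18 at Eya3. The Eya4 start lies 0.895 kb inside the annotated body.
T (chr17:8434173-8434422, plus strand): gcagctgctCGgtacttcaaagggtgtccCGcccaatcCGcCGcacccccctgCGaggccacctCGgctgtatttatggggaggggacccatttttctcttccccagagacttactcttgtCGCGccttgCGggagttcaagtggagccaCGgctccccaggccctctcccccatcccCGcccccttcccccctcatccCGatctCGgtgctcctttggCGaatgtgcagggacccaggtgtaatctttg
Eomes (chr9:118477939-118478188, plus strand): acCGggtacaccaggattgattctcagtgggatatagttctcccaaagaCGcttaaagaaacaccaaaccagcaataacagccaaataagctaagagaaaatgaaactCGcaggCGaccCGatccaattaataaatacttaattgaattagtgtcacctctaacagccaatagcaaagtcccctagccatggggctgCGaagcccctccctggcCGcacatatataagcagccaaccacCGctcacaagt
Tbx21 (chr11:97115332-97115581, minus strand): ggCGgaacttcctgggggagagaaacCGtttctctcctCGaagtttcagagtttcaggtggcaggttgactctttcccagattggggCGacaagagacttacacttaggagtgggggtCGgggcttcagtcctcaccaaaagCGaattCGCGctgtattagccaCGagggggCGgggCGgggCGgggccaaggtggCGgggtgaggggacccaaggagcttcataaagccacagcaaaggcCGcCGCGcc
Six6 (chr12:72939632-72939881, plus strand): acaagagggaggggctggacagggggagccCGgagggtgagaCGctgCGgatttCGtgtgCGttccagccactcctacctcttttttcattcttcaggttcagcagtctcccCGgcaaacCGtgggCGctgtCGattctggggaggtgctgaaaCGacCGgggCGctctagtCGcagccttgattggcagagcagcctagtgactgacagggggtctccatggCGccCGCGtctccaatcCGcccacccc
Tbx6 (chr7:126781233-126781482, plus strand): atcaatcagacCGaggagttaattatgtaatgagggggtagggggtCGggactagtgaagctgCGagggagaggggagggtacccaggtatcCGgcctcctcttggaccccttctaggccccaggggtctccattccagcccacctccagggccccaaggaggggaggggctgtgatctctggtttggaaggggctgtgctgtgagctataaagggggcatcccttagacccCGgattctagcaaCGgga
Six5 (chr7:19094294-19094543, plus strand): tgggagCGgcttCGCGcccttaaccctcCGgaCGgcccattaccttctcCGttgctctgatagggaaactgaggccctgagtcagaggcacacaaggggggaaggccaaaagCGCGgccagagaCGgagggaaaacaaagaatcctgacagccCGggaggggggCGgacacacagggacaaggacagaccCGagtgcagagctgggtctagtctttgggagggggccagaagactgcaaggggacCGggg
Eya4 (chr10:23349944-23350193, minus strand): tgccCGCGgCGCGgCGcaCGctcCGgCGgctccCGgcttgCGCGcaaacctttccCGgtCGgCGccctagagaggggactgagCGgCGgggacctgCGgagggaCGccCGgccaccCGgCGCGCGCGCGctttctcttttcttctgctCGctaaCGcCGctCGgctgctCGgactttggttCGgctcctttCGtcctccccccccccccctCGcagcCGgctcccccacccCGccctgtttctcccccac
Eya3 (chr4:132638796-132639045, plus strand): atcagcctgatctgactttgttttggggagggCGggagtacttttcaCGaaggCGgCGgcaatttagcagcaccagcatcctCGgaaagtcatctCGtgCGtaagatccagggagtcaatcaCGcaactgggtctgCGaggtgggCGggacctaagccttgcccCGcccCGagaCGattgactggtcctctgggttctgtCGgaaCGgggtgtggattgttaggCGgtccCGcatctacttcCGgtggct

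The numbers of CG dinucleotides at starts with H2AK119ub alone and with neither mark lay within the range of starts with both marks, and the single start with H3K27me3 alone lay above it. The 17 starts with both marks had a median of 14 CG (range 3 to 26), against 12 over the 2733 protein-coding starts with both marks. The 3 starts with H2AK119ub alone had 6 (Tbx6), 13 (Six5) and 18 (Mga), and the unmarked start of Eya3 had 18. The highest number, 35, was at Eya4, the only start of the 22 with H3K27me3 alone, whereas the 557 protein-coding starts of that class had a median of 5. Over all 22 starts the median was 14.5, against 10 for the 17274 protein-coding starts. CG is its own reverse complement, so both strands were covered by the count.

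**Figure D4:**
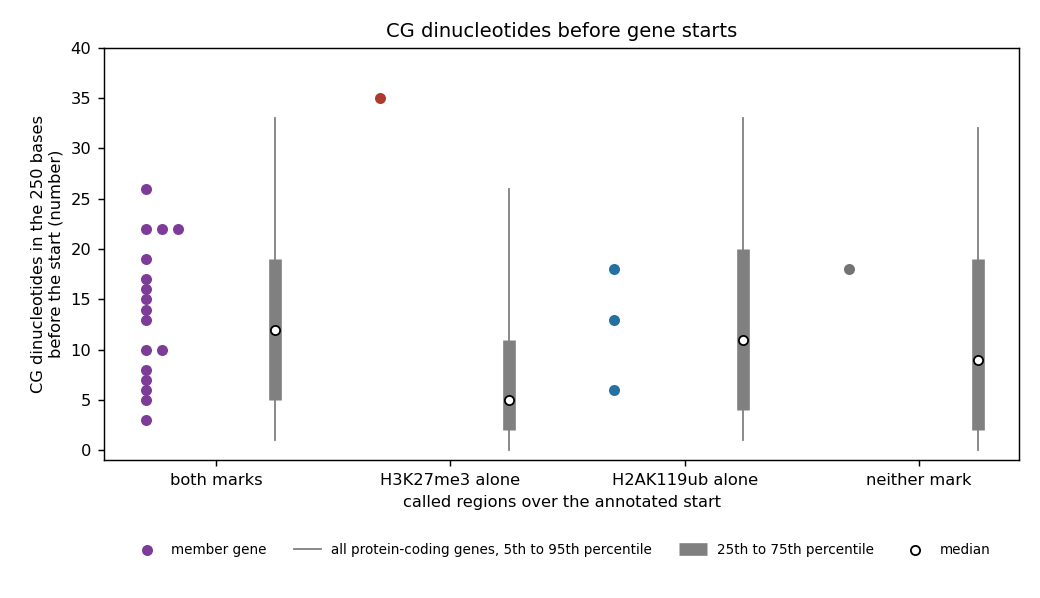
Number of CG dinucleotides in the 250 bases before the annotated start, for members (points) and for all protein-coding genes (median, 25th to 75th and 5th to 95th percentile), by the marks over the start. The members with both marks range from 3 to 26, and Eya4, with H3K27me3 alone, stands at 35.

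Of the 16 T-box genes 14 had both marks, and H3K27me3 was widest at the neighbours Tbx2 and Tbx4 and at the neighbours Tbx3 and Tbx5. Tbx2, a transcriptional repressor in heart and limb development, and Tbx4, a hindlimb and lung gene, lay together in 199 kb of uninterrupted H3K27me3 on chromosome 11, from 85823012 to 86022267. It was the fourth widest on the autosomes, where 12952 regions were called. H2AK119ub was not continuous there: Tbx2 had a 45.4 kb region and Tbx4 a separate one of 167 kb, with one of 6.56 kb between the genes. Of the 44.4 kb between the genes, 75.9% was covered by H2AK119ub, against 100% by H3K27me3. Tbx3, a repressor with roles in limb and mammary gland, had a 118 kb H3K27me3 region on chromosome 5 from 119607080 to 119725073, which also held the whole of the noncoding RNA genes Tbx3os1 and Tbx3os2. Its H2AK119ub region was 63.8 kb wide and lay inside it. Tbx5, which marks the forelimb and is needed in the heart, lies 112 kb further along the chromosome. It had a separate 78.3 kb H3K27me3 region over 81.5% of its window, and 2 H2AK119ub regions of 17.6 and 23.3 kb over 40.4% of it. Of the sequence between Tbx3 and Tbx5, 65.3% was inside H3K27me3 and 29.8% inside H2AK119ub.

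**Figure D5:**
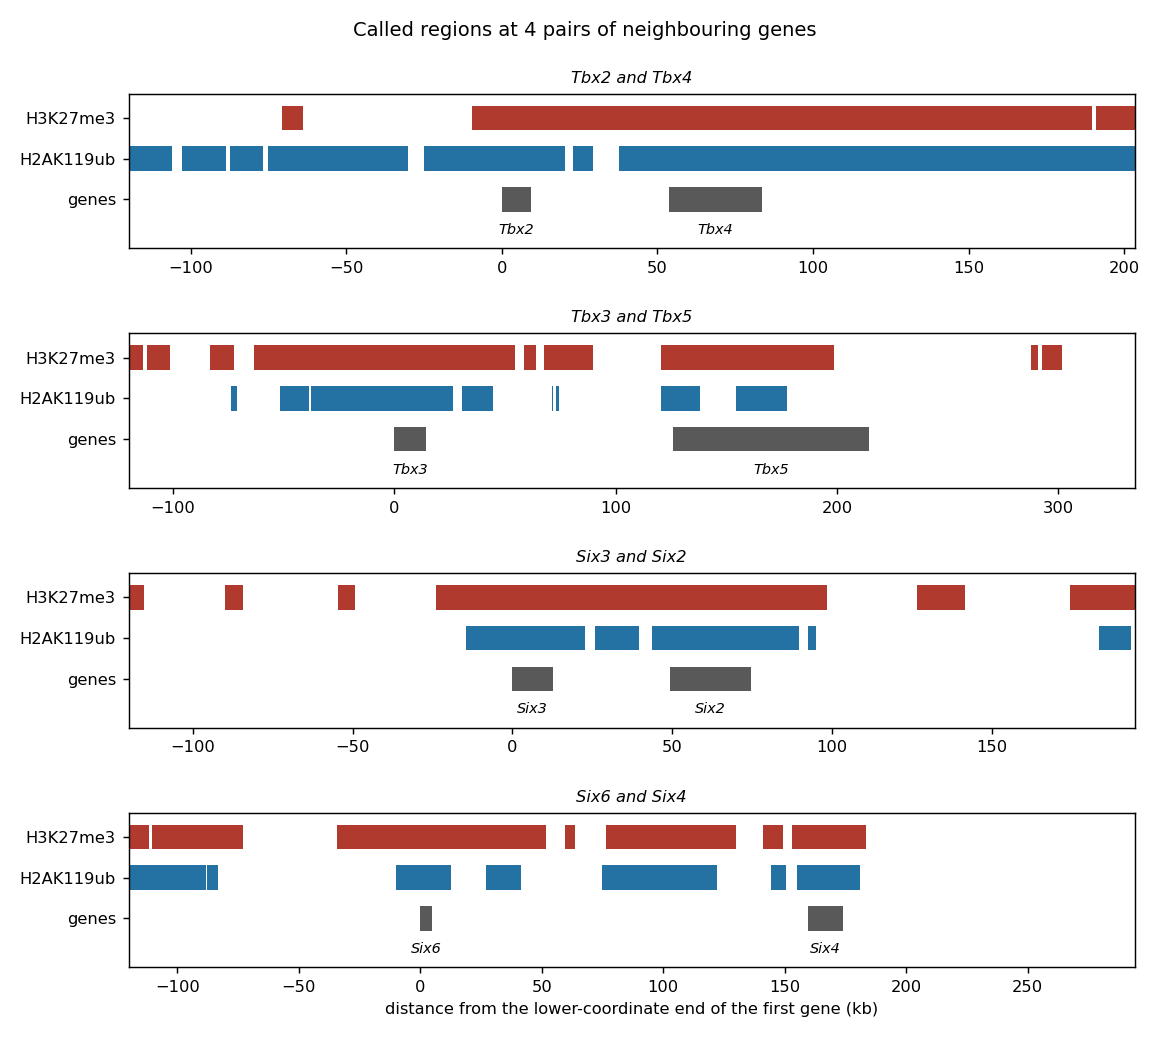
Called regions of H3K27me3 (top row), of H2AK119ub (middle row) and the members (bottom row) at the 4 pairs of members less than 200 kb apart, in kb from the lower-coordinate end of the first gene and cut at 120 kb beyond the pair. A single H3K27me3 region runs over Tbx2 and Tbx4 and over Six3 and Six2, while H2AK119ub is broken between the genes of each pair, and other annotated genes are not drawn.

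Early mesoderm genes differed among themselves. T, the brachyury gene of the primitive streak and notochord, lay wholly inside a 30.9 kb H3K27me3 region on chromosome 17 from 8420850 to 8451752. H2AK119ub was limited to its start, in a 10.2 kb region that ends inside the gene and covered 44.7% of the window. Eomes, which acts in early mesoderm and endoderm and in the developing cortex, was covered over its whole window by regions of 42.8 kb (H3K27me3) and 39.2 kb (H2AK119ub). Tbx6, a gene of the presomitic mesoderm, had no H3K27me3. The nearest H3K27me3 region lay 26.2 kb from the gene, and a 13.7 kb H2AK119ub region covered 93.8% of its window on chromosome 7 together with all of the neighbouring gene Ypel3.

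Tbx1, Tbx21, Tbr1 and Tbx15 had both marks. Tbx1, which patterns the pharyngeal region, lay in a 64.6 kb H3K27me3 region inside a 117 kb H2AK119ub region on chromosome 16. Both regions also held all of Gp1bb, a platelet receptor gene. Tbx21, which encodes the T helper factor T-bet, lay in 32.0 kb of H3K27me3 inside 63.7 kb of H2AK119ub. At Tbr1, a gene of cortical neurons, the H3K27me3 region was 35.9 kb and the H2AK119ub region 40.1 kb wide. Tbx15, a gene needed for the dorsal to ventral coat pattern of mice through the dermis, had H3K27me3 of 62.0 kb and H2AK119ub of 49.1 kb on chromosome 3. H3K27me3 covered 41.0% and H2AK119ub 30.1% of the window of this 114 kb gene, from its lower-coordinate end, and no strand was at hand for it.

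At Tbx18, Tbx20 and Tbx19 the marks covered the start and part of the body. Tbx18, a gene of ureter and sinus node progenitors, had 50.9 kb of H3K27me3 over 83.6% of its window and 31.8 kb of H2AK119ub over 53.1%. Tbx20, a heart gene, had H3K27me3 of 28.9 kb over 30.3% and H2AK119ub of 18.0 kb over 16.5%. Tbx19, the pituitary activator of Pomc, had 12.2 kb of H3K27me3 over 38.0%, and H2AK119ub regions of 7.41 and 2.79 kb over 29.9%. Tbx10 had the narrowest H3K27me3 of the 26 genes, 6.66 kb on chromosome 19, inside a 33.8 kb H2AK119ub region that also held Aldh3b2 and Acy3.

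Mga had H2AK119ub alone, like Tbx6, but over a smaller share of its window. Its protein combines a T domain with a helix-loop-helix domain and is a subunit of a variant form of Polycomb repressive complex 1. Its 97.6 kb body on chromosome 2 had no H3K27me3 and 2 H2AK119ub regions, of 6.98 kb at the 5' end and of 5.75 kb around the start in the promoter table, 24.7 kb inside the body. They covered 9.39% of the window. An H3K27me3 region of 8.81 kb ended 2.24 kb before the gene, outside the 1 kb flank.

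All 5 Gata genes had both marks, and H2AK119ub covered the whole window of each. H3K27me3 covered between 44.2% and 100% of it. H2AK119ub was the wider mark at 4 of them, against 9 of the 25 members with both marks. Gata3 acts in T cells, mammary epithelium and the inner root sheath of the hair follicle. Its 106 kb H2AK119ub region on chromosome 2 from 9804126 to 9910238 held the whole gene, while a 33.3 kb H3K27me3 region covered 54.2% of the window, from upstream of the start into the body. Gata5, a heart and gut gene, differed most between the marks in its window, with 14.1 kb of H3K27me3 inside 120.2 kb of H2AK119ub, a log2 ratio of widths of -3.09. That ratio leaves out H3K27me3 regions outside the window, at -26.8 to -13.2 kb and at -85.4 to -29.6 kb from the start. The H2AK119ub region, from -39.5 to 80.7 kb, met these as well. The 14.1 kb H3K27me3 region covered 44.2% of the Gata5 window and all of the noncoding gene Gata5os. The H2AK119ub region also took in Rps21, a ribosomal protein gene, Cables2 and Rbbp8nl.

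Gata4, Gata6 and Gata2 had 81.0% or more of their windows in each of the marks. Gata4, needed for heart and gonad, lay wholly in both marks on chromosome 14, in 119.1 kb of H3K27me3 and 101 kb of H2AK119ub. Gata6, needed for heart and gut endoderm, had H3K27me3 of 37.6 kb over 81.0% and H2AK119ub of 75.1 kb over 100% of its window on chromosome 18. Of the noncoding gene Gata6os, 96.6% lay in the H3K27me3 and 95.6% in the H2AK119ub region. Gata2, a gene of blood stem cells, lay in 29.9 kb of H3K27me3 and 35.8 kb of H2AK119ub on chromosome 6. Both regions ended at nearly the same place beyond its 3' end (3.67 kb for H3K27me3, 3.65 kb for H2AK119ub). This was a short gap in both lists and not the end of the marked stretch. Both regions ended 16.8 kb downstream of the start, and the next region of each mark began at 17.9 kb. From there H3K27me3 ran to 50.6 kb and H2AK119ub to 67.9 kb.

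Among the Six-family genes the marks were either both complete or H3K27me3 was missing. Six2, Six3, Six4 and Six6 had 100% of their windows inside both marks, and H3K27me3 was the wider mark at all 4. Six2, which maintains nephron progenitors, and Six3, a forebrain and eye gene, shared a 122 kb H3K27me3 region on chromosome 17 from 85589670 to 85711917, which held the whole of the RNA gene Six3os1. H2AK119ub was split, with a 46.1 kb region at Six2, a 37.3 kb region at Six3 and one of 13.6 kb between the genes. Of the 36.5 kb between the genes, 80.3% was covered. Six6, a retina and pituitary gene, had an 86.1 kb H3K27me3 region on chromosome 12, against 22.8 kb of H2AK119ub, a log2 ratio of 1.92. Six4, which acts in muscle, had H3K27me3 of 30.4 kb and H2AK119ub of 26.1 kb. Of the 155 kb between Six6 and Six4, 77.2% was inside H3K27me3 and 51.9% inside H2AK119ub.

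Six5 had H2AK119ub alone. The gene lies beside Dmpk, the kinase gene of the myotonic dystrophy locus, on chromosome 7. A 71.7 kb H2AK119ub region from 19049961 to 19121663 held Six5, Dmpk, Dmwd, Rsph6a and Bhmg1 completely. The nearest H3K27me3 region was 1.53 kb wide and began 3.37 kb beyond the gene.

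The Eya genes had the lowest median coverage of the 4 families. Their bodies are long, from 85.7 to 248 kb, and the median member of the family had 5.55% of its window in H3K27me3 and 2.83% in H2AK119ub. Eya1, mutated in a human syndrome of ear and kidney, had 12.3 kb of H3K27me3 at its higher-coordinate end, around an 8.15 kb H2AK119ub region. H3K27me3 covered 7.94% and H2AK119ub 5.65% of the window. Eya4, a hearing and heart gene in humans, had an 11.4 kb H3K27me3 region that reached from 5.46 kb upstream to 5.98 kb downstream of its start. It had no H2AK119ub, and the nearest such region lay 253 kb from the gene. Eya3 had neither mark over 85.7 kb. The nearest regions lay 31.3 kb (H3K27me3) and 6.13 kb (H2AK119ub) beyond its higher-coordinate end.

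Eya2 was the exception among them and the most fragmented of the 30 genes. Its 177 kb body on chromosome 2 held 8 H3K27me3 regions, of 2.07 to 36.7 kb, over 50.4% of the window. It held 6 H2AK119ub regions, of 1.73 to 52.8 kb, over 92.2% of it. The median marked member had 1 region of either mark.

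The arrangement of the marks differed by gene. Of the 22 members with a single region of each mark in the window, H2AK119ub lay inside H3K27me3 at 10 (T, Tbx3, Tbx15, Tbx18, Tbx20, Six2, Six3, Six4, Six6 and Eya1). Regions outside the window were left out, such as the further H3K27me3 upstream of Gata5. H3K27me3 lay inside H2AK119ub at 5 (Tbx1, Tbx10, Tbx21, Gata3 and Gata5), and the regions were shifted against each other at the other 7. These classes depend on short breaks between called regions. At Eomes, counted as shifted, H3K27me3 broke off 16.5 kb downstream of the start and resumed from 17.6 to 21.1 kb. H2AK119ub ended there at 20.6 kb, within the resumed H3K27me3. Over the 25 genes with both marks the median log2 ratio of H3K27me3 to H2AK119ub width was 0.25 (from -3.09 at Gata5 to 2.13 at Tbx2), and H3K27me3 was wider at 16. The ratio at Tbx2 sets the 199 kb H3K27me3 region shared with Tbx4 against the 45.4 kb H2AK119ub region at Tbx2 only. It leaves out the 167 kb H2AK119ub region at Tbx4, most of which lies in the same H3K27me3 region. Six2 and Six3 also share 1 H3K27me3 region, so each shared region is counted at 2 genes. Neither the nesting nor the wider mark was counted over all genes, so whether these arrangements are particular to the members is not known. Over marked autosomal genes the median widest region was 11.4 kb for H3K27me3 and 20.1 kb for H2AK119ub. The calling thresholds of the marks are unknown, so a wider region does not mean more of a mark.

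Genes that work with these factors were also described, from lists of cofactors and of targets. All 16 cofactor genes had H2AK119ub (100%, against 60.6% of all protein-coding genes) and 11 had H3K27me3 (68.8%, against 27.3%). The 11 include the X-linked gene Dach2. H3K27me3 was widest at Lmo2 (82.1 kb), a bridge between Gata factors and their partners, Hand2 (70.7 kb), a heart factor, and Nkx2-5 (66.2 kb), which binds Tbx5 and Gata4. Zfpm1, a Gata cofactor, Lyl1, Ldb1, Dach1 and Cited2 had H2AK119ub alone. Of 22 target genes, 13 had H3K27me3 (59.1%, against 27.3%) and 16 had H2AK119ub (72.7%, nearer to the 60.6% of all genes). Among the targets H3K27me3 was widest at the X-linked gene Cxcr3 (71.9 kb), at Cdkn2a (52.4 kb), a target of Tbx2 and Tbx3, and at Shh (33.1 kb). Msgn1, Nppa, Nppb and Ifng had neither mark. Tbx22 and Gata1, family members on X, had both marks. Tbx22 had H3K27me3 of 81.9 kb and H2AK119ub of 8.48 kb, and Gata1 had H3K27me3 of 342 kb and H2AK119ub of 187 kb. Both marks lay at 23.9% of all protein-coding genes and at 21.6% of autosomal ones, so they were more frequent on X. The widest H3K27me3 region at a gene was 1114 kb with X included and 300 kb on the autosomes. The share over X genes alone was not computed, so Tbx22 and Gata1 are not read as showing a family trait.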

How the data were processed

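For each mark the authors deposited a table of regions whose columns, per the file headers, are the chromosome and the first and last position, with no other value such as a height, score or p-value. The submitters' processing notes name Bowtie2 2.3.3.1, SAMtools 1.9 and build mm10 and do not say what each was used for. How regions were called, at which threshold, whether the input was used and whether libraries were pooled is not given in the sources used here. Those choices set how many regions there are and how wide. Starts were read as counted from 0 and are given counted from 1.

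Gene bodies came from RefSeq (GRCm38.p6), and strand, starts and sequences from its promoter table. A mark counted at a gene when at least 1 bp of a region lay in the body plus 1 kb. Widths are of whole regions, also where these reach beyond the window. Background shares of genes and of window coverage use all protein-coding genes on the 19 autosomes and X, and those for widths and for the overlap of regions use the autosomes. Python 3.11.15 and matplotlib 3.10.9 were used. Coverage counts were tested on simulated regions, with 0 differences from a direct recount of 1000 windows. All members were named. In the related lists, genes with neither mark and the 3 with the widest H3K27me3 were named, and others after their values were seen. The members and lists were chosen with earlier results of these data known.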

Additional observations from a re-analysis of the deposited data

How the results depend on the processing

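The lists give no value per library, so no replicate could be left out. No paired analysis was possible because each mark has a single list and no test was made. All 30 gene counts under 10 settings stayed within 1.5 times the counts given above, as did the count by locus, an alternative chosen after seeing the data. Part of this was fixed in advance. The autosomal background does not change the members, lists of equal size leave H3K27me3 unchanged, and joining regions removes no gene. The counts around the 5' start are of 22 genes and those by locus of 26, so they are not on the same scale as counts of 30. H3K27me3 was found at 28 genes with a flank of 5 kb, which takes in Mga and Six5. With 50% of the window required, H3K27me3 was counted at 20 genes and H2AK119ub at 21. Of 40 medians, 26 did not change at 3 significant digits, some of them under settings that could not move them. The share of the window in H3K27me3 became 84.4% without a flank, 79.9% with 5 kb, 50% around both ends and 100% around the 5' start. That in H2AK119ub became 99.3% with 5 kb. The median H3K27me3 width became 36.3 kb with 5 kb, 32.6 kb around the 5' start and 46.9 kb with 50% of the window required. The median H2AK119ub width became 42.7 kb with 5 kb and with regions under 1 kb apart joined, 38.2 kb around both ends, 36.5 kb around the 5' start, 46.1 kb with 50% of the window required and 45.4 kb with lists of equal size. Depth is unknown, so a gene without a region may carry a mark below the calling threshold.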
